A study of Mus musculus with 35 samples.

Results

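The zona pellucida and oocyte-secreted genes described here are Zp1, Zp2, Zp3, Gdf9, Bmp15, Oosp1 and Astl, and they were taken by name as 7 of the 24480 genes of the count table. Total RNA had been sequenced from wild-type C57BL/6NRj mouse embryos obtained from superovulated 3- to 4-week-old females, with the embryos of several females pooled. Zygotes or both blastomeres of 2-cell (2C) embryos were injected into the cytoplasm with Kdm5b-yfp mRNA at about 1150 ng/µl, which encodes the histone H3K4 demethylase KDM5B fused to yellow fluorescent protein, or with nuclease-free water. There were 10 water zygotes and 10 Kdm5b zygotes, each a single embryo taken 17 h after ovulation, and 9 water 2C and 6 Kdm5b 2C samples taken 5.5 to 8 h after division. Single intact embryos made up 6 of the water 2C and 5 of the Kdm5b 2C samples. The others were pools of blastomeres, each blastomere from another embryo, with 2 blastomeres in 1 water sample, 3 in 2 water samples and 3 in 1 Kdm5b sample. Only the 2C embryos had been frozen and thawed, as zygotes, and each stage had its own day of library preparation, so neither can be told apart from stage. The control was water, so injected mRNA as such cannot be told apart from KDM5B.

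The zona pellucida is the glycoprotein coat around the mammalian egg. Zp1, Zp2 and Zp3 encode its proteins, which the growing oocyte secretes and which assemble into filaments, with ZP1 crosslinking them. Sperm bind the N-terminal region of ZP2, and Astl encodes ovastacin, the cortical granule protease that is released at fertilisation and cleaves ZP2 so that further sperm no longer bind. Gdf9 and Bmp15 encode ligands of the TGF-beta family that the oocyte sends to the surrounding granulosa and cumulus cells, and Oosp1 encodes a small secreted oocyte protein. All of these transcripts are made during oocyte growth and carried into the embryo as maternal RNA. The zona itself was dissolved with acidic Tyrode's solution before lysis, which takes away the protein coat and not the transcripts inside the embryo.

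The 7 genes lie at 7 separate loci of GRCm38, and no other gene of the count table overlaps any of them. Zp1 (12 exons, chr19:10914296-10920601) and Oosp1 (5 exons, chr19:11667460-11691051) are both on the minus strand of chromosome 19. Zp2 (18 exons, chr7:120132361-120145290) and Bmp15 (2 exons, chrX:6314106-6320723) are on the minus strand too. Zp3 (8 exons, chr5:135980105-135988624), Gdf9 (2 exons, chr11:53433286-53437903) and Astl (10 exons, chr2:127338639-127357655) are on the plus strand. The closest neighbour was Dusp2, which lies 262 bases upstream of Astl on the same strand. It was counted by 0 to 13 fragments per sample, against 53 to 790 for Astl. Oosp3, of the same family as Oosp1, lies 6004 bases from it on the opposite strand.

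4 members have entries in the RefSeq table of start-site windows of GRCm38.p6, and these are shown because E-boxes, the CANNTG letters that basic helix-loop-helix factors such as FIGLA and its partners bind, have a known role in transcription of zona genes. Each line gives the 250 bases before an annotated start, 5' to 3' on the gene's own strand, with the E-boxes in capitals.
Zp3 (chr5:135979855-135980104, plus strand): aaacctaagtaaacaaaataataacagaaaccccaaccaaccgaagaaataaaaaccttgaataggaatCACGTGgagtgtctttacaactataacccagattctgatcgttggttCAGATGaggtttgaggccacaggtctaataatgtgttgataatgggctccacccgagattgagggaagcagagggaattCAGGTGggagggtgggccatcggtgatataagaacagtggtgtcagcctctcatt
Oosp1 (chr19:11691052-11691301, minus strand): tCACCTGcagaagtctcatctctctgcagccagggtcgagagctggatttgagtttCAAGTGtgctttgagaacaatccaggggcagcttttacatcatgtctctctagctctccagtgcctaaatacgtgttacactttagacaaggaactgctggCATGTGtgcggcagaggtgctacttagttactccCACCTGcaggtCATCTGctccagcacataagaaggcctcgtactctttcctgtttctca
Astl (chr2:127341386-127341635, plus strand): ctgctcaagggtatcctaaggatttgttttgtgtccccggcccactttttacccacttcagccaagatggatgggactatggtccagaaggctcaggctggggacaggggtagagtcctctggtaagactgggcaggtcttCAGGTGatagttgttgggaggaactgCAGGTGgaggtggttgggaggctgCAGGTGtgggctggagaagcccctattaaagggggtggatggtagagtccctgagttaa
Bmp15 (chrX:6320725-6320974, minus strand): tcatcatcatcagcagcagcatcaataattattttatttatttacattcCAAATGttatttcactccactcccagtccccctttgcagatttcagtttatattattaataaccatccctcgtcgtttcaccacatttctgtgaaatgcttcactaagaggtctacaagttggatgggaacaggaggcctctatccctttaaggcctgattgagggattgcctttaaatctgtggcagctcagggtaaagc
The Zp3 window held 3 E-boxes, of which the CACGTG ended 176 bases before the start. The window of the downstream Astl start held 3, each with the letters CAGGTG, and the window of the upstream Astl start held 0. Oosp1 had 5 and Bmp15 had 1. Among 32851 windows of the same length, a share of 66.2% held at least 1 E-box and 12.2% held 3 or more. The NOBOX element, TAATTG or TAATTA on either strand and with no overlap with the E-box letters, was found once in the Bmp15 window and in 11.3% of all windows. Zp1, Zp2 and Gdf9 are not in the table. At the other end of the transcript, a polyadenylation signal (AATAAA or ATTAAA) stood in the last 100 bases of the longest GENCODE transcript of all 7 genes and of 74.9% of 21828 protein-coding genes. The cytoplasmic polyadenylation element, by which stored oocyte RNAs are re-adenylated (TTTTAT or TTTTAAT), was found there in Gdf9 alone among the 7, and in 16.6% of those genes. These letter matches describe the sequences and were not tested for binding or use.

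The samples carried the marks of their labelled stage. The 8 early 2-cell markers summed to 3.82 to 55.5 TPM (counts per exon base, given relative to the sum of all genes of that sample) in water zygotes and to 244 to 1115 TPM in water 2C samples. The cumulus and granulosa markers, 15 genes that the follicle cells around the egg express, together summed to 17.1 to 60.9 TPM over all samples. Cyp19a1 was the most abundant of them in water zygotes, at 27.2 ± 4.31 TPM (SD). Amh, Hsd3b1 and Ptx3 were at 0 in all water 2C samples, while 0 of the 15 were at 0 in all water zygotes. The depth was 8705584 to 17797581 gene counts per sample, and Kdm5b made up 2.30% to 15.8% of them in injected samples and at most 0.0189% in water samples. The Kdm5b counts were left out of everything that follows. One library stood apart. Water 2C replicate 2 had the lowest value of its group in 6 of the 7 genes. The edgeR stage results of the 7 genes in water samples are therefore also given without it. Ratios, lists of other genes and counts of shared changes include it.

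Per unit of length, Oosp1 was the most abundant of the 7 in water zygotes, followed by Bmp15, Gdf9, Zp2, Zp3, Zp1 and Astl. Oosp1 stood at 1709 ± 220 TPM (SD, n = 10), rank 42 of 24479 genes. Bmp15 followed at 1419 ± 191 TPM, rank 57, and Gdf9 at 1137 ± 203 TPM, rank 79. The ranges of Oosp1 (1449 to 2007 TPM) and Bmp15 (1143 to 1734 TPM) overlapped, as did those of Bmp15 and Gdf9 (911 to 1399 TPM). The zona genes were much lower, with Zp2 at 218 ± 27.0 TPM (rank 1038), Zp3 at 115 ± 23.3 TPM (rank 2020) and Zp1 at 52.5 ± 10.6 TPM (rank 3678). Astl was close below Zp1 at 41.2 ± 6.81 TPM (rank 4263), and their ranges overlapped. The lowest Zp2 value and the highest Zp3 value were both 171 TPM, and the lowest Zp3 value of 88.5 TPM lay above the highest Zp1 value of 76.8 TPM. In water 2C samples the order of the 7 was the same, with Oosp1 at 2093 ± 515 TPM (rank 32, n = 9), Bmp15 at 1222 ± 303 TPM (rank 72), Gdf9 at 627 ± 273 TPM (rank 204) and Zp2 at 165 ± 35.2 TPM (rank 1201). Astl ranked 5960 there, at 17.9 ± 8.27 TPM.

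**Figure D1:**
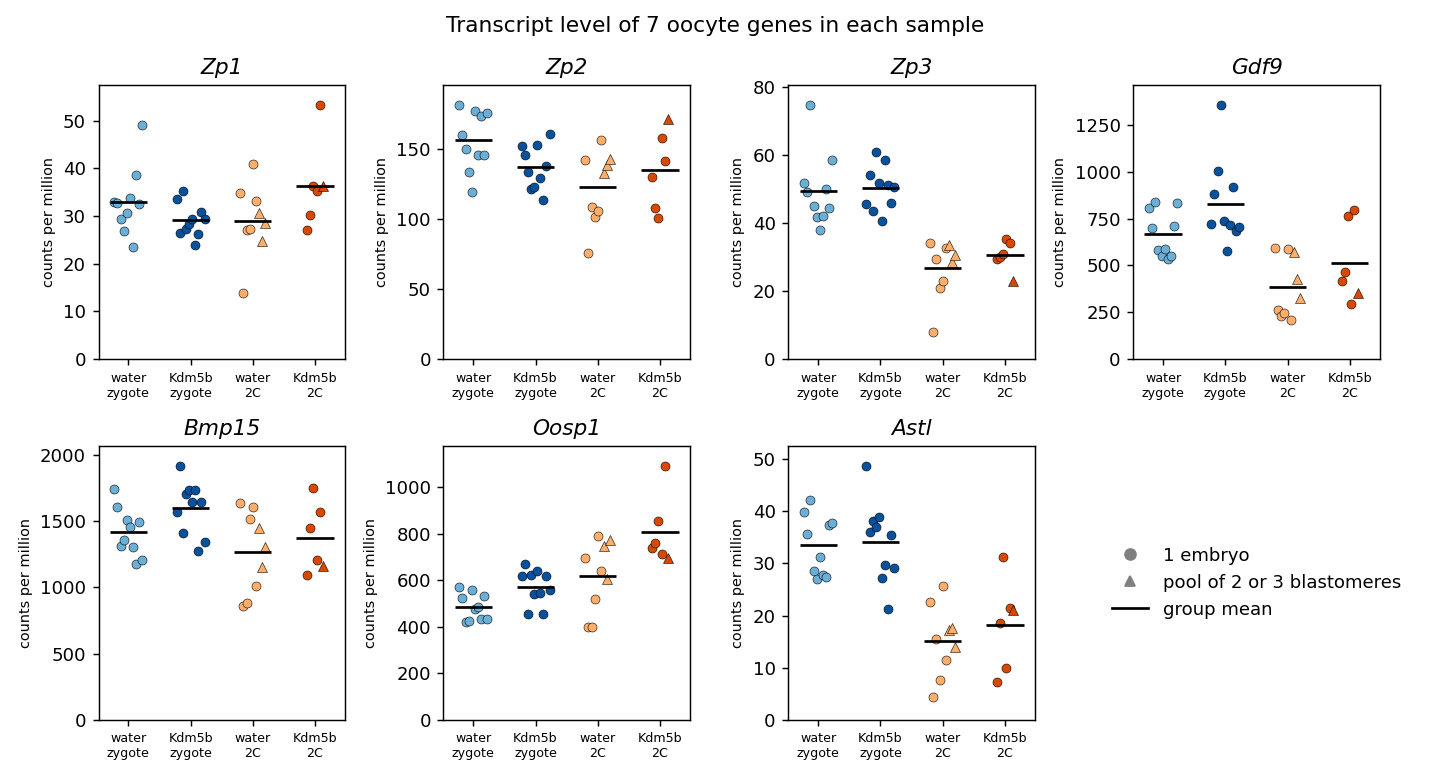
Level of each gene in every sample, in CPM, counts relative to library size, on an axis from 0 (each panel has its own scale), for 10 water zygotes, 10 Kdm5b zygotes, 9 water 2C and 6 Kdm5b 2C samples. Circles are single embryos, triangles pools of blastomeres and black lines group means. Zp3 and Astl lie lower in both 2C groups, Oosp1 lies higher, and Gdf9 scatters widely for its level.

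The first comparison asked how these maternal transcripts stood in early 2C embryos relative to zygotes, in water-injected controls. Levels between groups are in CPM, each count relative to the TMM-scaled size of its library, and a gene is said to have risen or fallen where the adjusted p of edgeR's quasi-likelihood test, Benjamini-Hochberg over all genes tested, was under 0.05. The study's own call also asks for an absolute log2 fold change over 1. All 7 genes passed the filter on low counts. Astl, Zp3, Gdf9 and Zp2 fell, Oosp1 rose, and Zp1 and Bmp15 did not pass the test. Of all 11968 genes tested 25.4% fell and 26.8% rose, so a change by this rule is common at this step. Only Astl passed the fold change threshold as well, as 13% of all genes (1555) did here in the lower direction. The paper reports far fewer genes past these thresholds between these groups, and the cause of that difference was not tested. The counts are shares of each sample's RNA, so less transcript of a gene and more RNA from other genes cannot be told apart.

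Astl, the ovastacin gene, changed most. It ran from 27.1 through a median of 33.4 to 42.3 CPM in water zygotes, and from 4.32 through 15.5 to 25.6 CPM in water 2C samples. All 9 of the 2C samples lay below the lowest zygote, and such a complete separation in the lower direction was seen in 10.9% of all genes. The level was 45.9% of that in zygotes, a log2 fold change of -1.12 (SE 0.22, edgeR adjusted p = 0.000159). Without water 2C replicate 2 the log2 fold change was -1.0003 (edgeR adjusted p = 5e-05), barely past the fold change threshold.

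Among the zona genes only Zp3 separated the stages fully. Zp3 ran from 37.9 through a median of 47.0 to 74.6 CPM in water zygotes and from 8.00 through 29.5 to 34.1 CPM in water 2C samples, with all 9 below the lowest zygote. It fell by 0.86 on the log2 scale (SE 0.19, edgeR adjusted p = 0.000445), to 55.1% of the zygote level, and the log2 fold change was -0.74 without replicate 2 (edgeR adjusted p = 5.32e-05). Zp2, which encodes the sperm-binding protein, ran from 119 through 155 to 181 CPM in zygotes and from 76.1 through 133 to 157 CPM in 2C samples. The groups overlapped, with 4 of 9 below the lowest zygote, and the log2 fold change was -0.32 (SE 0.12, edgeR adjusted p = 0.0254), or -0.25 without replicate 2 (edgeR adjusted p = 0.0411). Zp1, the crosslinking component, ran from 23.4 through 32.6 to 49.0 CPM in zygotes and from 13.8 through 28.5 to 40.9 CPM in 2C samples. Its log2 fold change of -0.16 had a 95% interval from -0.47 to 0.16 (edgeR adjusted p = 0.433), and the interval did not reach the value of Zp3. Without replicate 2 it was -0.07 (edgeR adjusted p = 0.696).

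The paired oocyte ligands behaved differently. Gdf9 ran from 532 through 643 to 837 CPM in zygotes and from 206 through 328 to 590 CPM in 2C samples, with 6 of 9 below the lowest zygote. It fell by 0.78 on the log2 scale (SE 0.18, edgeR adjusted p = 0.000934), to 58.4% of the zygote level, and the log2 fold change was -0.73 without replicate 2 (edgeR adjusted p = 0.00202). Bmp15 ran from 1173 through 1403 to 1744 CPM in zygotes and from 859 through 1303 to 1637 CPM in 2C samples, with a log2 fold change of -0.13 (95% interval -0.35 to 0.10, edgeR adjusted p = 0.362), or -0.07 without replicate 2 (edgeR adjusted p = 0.581).

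Oosp1 was the member that rose. It ran from 420 through 482 to 572 CPM in zygotes and from 397 through 641 to 792 CPM in 2C samples. Of the 9, 6 lay above the highest zygote and 2, replicates 2 and 3, below the lowest. The log2 fold change was 0.38 (SE 0.12, edgeR adjusted p = 0.00898), and it was 0.44 without replicate 2 (edgeR adjusted p = 0.00129). The rise was less firm than the falls. With the 6 single intact embryos only it was 0.27 and did not pass (edgeR adjusted p = 0.103), and it also missed the threshold without TMM scaling (0.29, edgeR adjusted p = 0.0559) and without the filter on low counts (0.29, edgeR adjusted p = 0.0608). The 3 pools had 607 to 774 CPM and the 6 single embryos a median of 580 CPM.

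**Figure D2:**
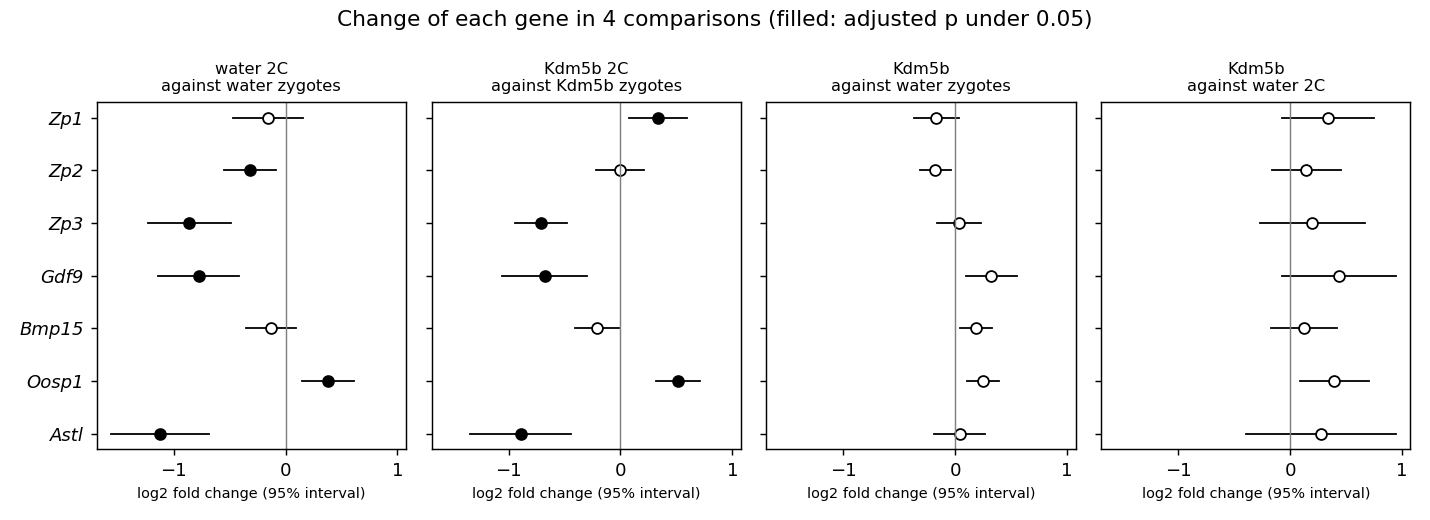
Log2 fold change of each gene (x axis) in 4 comparisons, with bars for about 95% intervals (from the standard errors of edgeR's quasi-likelihood fit). Filled points have an adjusted p under 0.05, 5 in each stage comparison and 0 in each injection comparison. Astl is the lowest point in both stage panels, at -1.12 and -0.89, and Oosp1 is at 0.38 and 0.51.

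The same step was compared in Kdm5b-injected samples, which share no library with the water groups. Zp3, Gdf9 and Astl fell and Oosp1 rose here too, Zp1 rose, and Zp2 and Bmp15 did not pass the test. Over 12390 genes 29.5% fell and 29.3% rose. None of the 7 passed the fold change threshold in addition, which 26.5% of genes did in one direction or the other, although the adjusted p was under 0.05 for 5 members and the unadjusted p for 6 (62.4% of all genes in edgeR). DESeq2's Wald test gave 0 calls at both thresholds as well.

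Oosp1 stood at 455 to 671 CPM in Kdm5b zygotes (median 589) and at 698 to 1092 CPM in Kdm5b 2C samples (median 749). The 6 later samples were all higher than any of the zygotes, as was so for 12.2% of genes, and the log2 fold change was 0.51 (SE 0.10, edgeR adjusted p = 0.000103). Zp3 stood at 40.5 to 60.98 CPM in zygotes (median 50.9) and at 23.0 to 35.3 CPM in 2C samples (median 30.4). Its groups did not overlap either, which held for 16.4% of genes in the lower direction, and the log2 fold change was -0.71 (SE 0.12, edgeR adjusted p = 1.66e-05).

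Gdf9 and Astl overlapped between the stages in Kdm5b samples. Gdf9 stood at 575 to 1355 CPM in zygotes (median 728) and 294 to 795 CPM in 2C samples (median 441), a log2 fold change of -0.68 (SE 0.19, edgeR adjusted p = 0.00425). Astl stood at 21.2 to 48.7 CPM in zygotes (median 35.8) and 7.32 to 31.3 CPM in 2C samples (median 19.8), a log2 fold change of -0.89 (SE 0.23, edgeR adjusted p = 0.00185). In each, 4 of the 6 2C samples lay below the lowest zygote. Without Kdm5b 2C replicate 3, the highest of its group in Astl, the Astl log2 fold change was -1.11 and passed both thresholds (edgeR adjusted p = 0.000208). Over the 16 fits that left out 1 sample it ran from -1.11 to -0.73. In 15 of them none of the 7 genes passed both thresholds.

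The remaining 3 genes moved little in Kdm5b samples. Zp1 stood at 23.9 to 35.1 CPM in zygotes and 26.9 to 53.2 CPM in 2C samples, a log2 fold change of 0.34 (SE 0.13, edgeR adjusted p = 0.031). That rise was not firm, and 4 of the 16 fits that left out 1 sample lost it. Without Kdm5b 2C replicate 5, the sample at 53.2 CPM, the value was 0.19 (edgeR adjusted p = 0.186). The rise also missed the threshold without TMM (0.21, edgeR adjusted p = 0.19), without a filter (0.27, edgeR adjusted p = 0.12) and with single intact embryos only (0.33, edgeR adjusted p = 0.0508). The same held with a replicate block (0.27, edgeR adjusted p = 0.216) and in a single edgeR model of all 35 samples (0.32, adjusted p = 0.0901). Zp2 had a log2 fold change of -0.01 (95% interval -0.22 to 0.21, edgeR adjusted p = 0.964). Bmp15 had -0.21 (SE 0.10, edgeR adjusted p = 0.0792), and without Kdm5b 2C replicate 3 it was -0.29 (edgeR adjusted p = 0.016). It also passed without Kdm5b 2C replicate 5 or Kdm5b zygote replicate 8, and stayed short of the threshold in 13 of the 16 such fits. It passed without TMM (-0.34, edgeR adjusted p = 0.00653), without a filter (-0.28, edgeR adjusted p = 0.027) and with a replicate block (-0.28, edgeR adjusted p = 0.0459), but not in 6 of 9 other settings.

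Of 11819 genes tested in both stage comparisons, 23.2% fell in both and 23% rose in both, and among the 7 these were 3 (Zp3, Gdf9 and Astl) and 1 (Oosp1). Whether the stage change differed between the injections was tested as an interaction over all 35 samples. None of the 7 passed, against 0.109% of 13778 genes at an adjusted p under 0.05 and 0.0145% past both thresholds. The unadjusted p was under 0.05 for 1 member in edgeR, as for 9.1% of all genes, and for 1 in DESeq2, as for 10.3%. In edgeR that gene was Zp1, whose stage change was 0.51 higher in Kdm5b samples on the log2 scale (SE 0.22, p = 0.0226 and adjusted p = 0.446 in edgeR). The interaction of Zp3 was 0.17 (95% interval -0.29 to 0.63) and that of Astl 0.25 (-0.41 to 0.90). These intervals leave room for differences between the injections in either direction.

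The unequal change of the members was also tested within samples, since the ratio of 2 genes in 1 library does not depend on scaling between libraries. For 5 pairs of genes the mean log2 ratio of counts was compared by two-sided permutation tests, and p-values were adjusted over 15 tests in 3 comparisons. Between water 2C samples and water zygotes 4 of the 5 ratios differed. These ratios use the same counts as the fold changes above, and 52.2% of all genes passed edgeR's adjusted p in this comparison. How often other pairs of genes differ was not tested. The count of Zp1 relative to Zp3 went from a geometric mean of 0.666 (0.393 to 0.889) in zygotes to 1.12 (0.865 to 1.78) in 2C samples, 1.68-fold higher (exact permutation test, p = 4.33e-05, adjusted p = 0.000487). The ranges overlapped between 0.865 and 0.889. Zp2 relative to Zp3 went from 3.19 (2.01 to 4.67) to 4.81 (3.69 to 9.47), 1.51-fold higher (exact permutation test, p = 0.000303, adjusted p = 0.00152). The ratio tests were not repeated without water 2C replicate 2. Gdf9 relative to Bmp15 went from 0.469 (0.366 to 0.694) to 0.286 (0.162 to 0.395), 1.64-fold lower (exact permutation test, p = 6.50e-05, adjusted p = 0.000487). Astl relative to Zp2, protease to substrate, went from 0.214 to 0.112, 1.90-fold lower (exact permutation test, p = 0.00065, adjusted p = 0.00244). Zp1 relative to Zp2 was 0.209 in zygotes and 0.233 in 2C samples and did not pass (exact permutation test, p = 0.273, adjusted p = 0.446). These are ratios of counts and not of molecules, because the transcripts differ in length.

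The ratios between the stages in Kdm5b samples are given as a description, with no test. Zp1 relative to Zp3 was 0.58 in Kdm5b zygotes and 1.18 in Kdm5b 2C samples, and Gdf9 relative to Bmp15 was 0.509 and 0.356. None of the 5 ratios passed between Kdm5b and water samples, in zygotes (permutation tests with 100000 resamples, lowest adjusted p = 0.366) or in 2C samples (exact permutation tests, lowest adjusted p = 0.372).

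**Figure D3:**
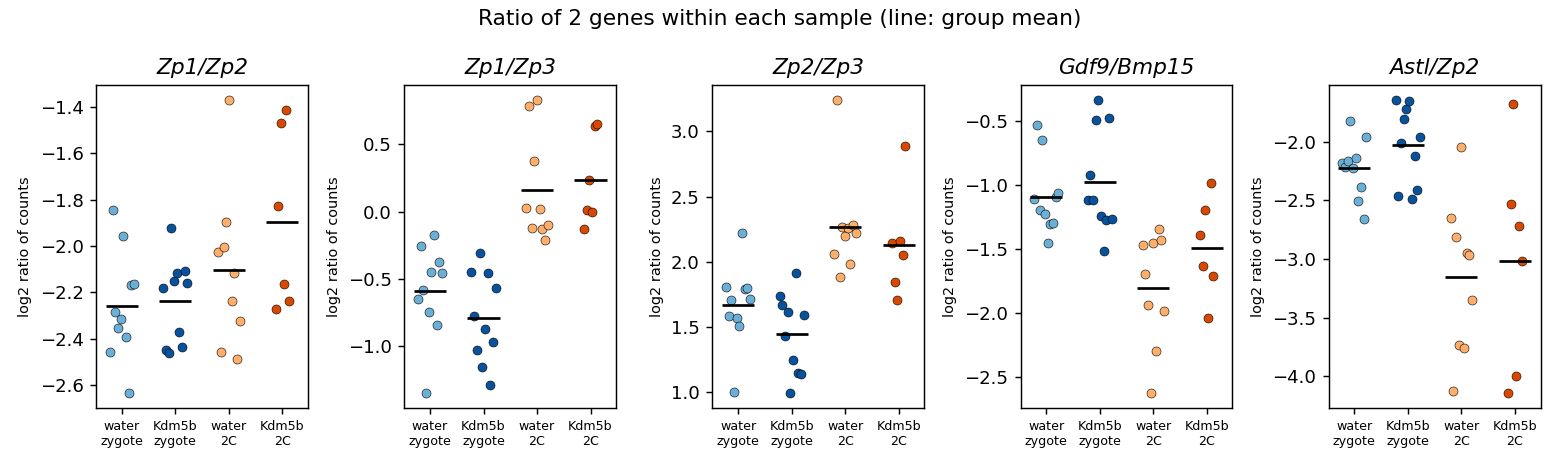
Log2 ratio of the counts of 2 genes within each sample (y axis, a scale per panel), by group, with lines for group means. Zp1 over Zp3 and Zp2 over Zp3 lie higher in both 2C groups, Gdf9 over Bmp15 and Astl over Zp2 lie lower, and in each panel the ranges of the water stages overlap.

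The comparison of the injections asked whether early removal of H3K4 methylation by KDM5B altered these transcripts. In zygotes none of the 7 passed at an adjusted p under 0.05, as 0.134% of 11933 genes did (16 genes, of which 1, or 0.00838% of those tested, also passed the fold change threshold). At an unadjusted p under 0.05 there were 4 in edgeR, where 10.3% of all genes were, and 4 in DESeq2, where 11% were. In a single edgeR model of all 35 samples there was 1, and 374 of 13778 genes. Oosp1 was 455 to 671 CPM in Kdm5b and 420 to 572 CPM in water zygotes, a log2 fold change of 0.25 (SE 0.07, p = 0.00209 and adjusted p = 0.196 in edgeR), and 5 of 10 Kdm5b zygotes lay above the highest water zygote. Gdf9 was 0.32 higher (SE 0.11, p = 0.0087 and adjusted p = 0.308 in edgeR), with 9 of 10 above the water mean. Bmp15 was 0.19 higher (SE 0.07, edgeR adjusted p = 0.354) and Zp2 had a log2 fold change of -0.18 (SE 0.07, edgeR adjusted p = 0.377). Zp3 and Astl had 0.03 and 0.04, with 95% intervals of -0.16 to 0.23 and -0.19 to 0.26, and Zp1 had -0.17 (-0.37 to 0.03).

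The libraries carry index numbers in strips of 8, which the sample labels allow to be inferred and which the study does not call batches. Strips 8, 9 and 10 each held equal numbers of both injections. Within them Oosp1 was 0.29, 0.15 and 0.29 higher in Kdm5b zygotes on the log2 scale. Bmp15 was 0.13, 0.23 and 0.15 higher, and Zp2 was lower in each, at -0.17, -0.24 and -0.10. Gdf9 was 0.41 and 0.39 higher in strips 8 and 9 and had -0.15 in strip 10, which holds 2 samples of each injection. Among water zygotes Gdf9 itself ran from 581 to 837 CPM in strip 8 and from 532 to 587 CPM in strip 9. With the strip as a covariate none of the 7 passed.

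In 2C embryos none of the 7 passed either, against 0.0245% of 12244 genes at an adjusted p under 0.05 (3 genes) and 0.00817% past both thresholds (1 gene). The unadjusted p was under 0.05 for 1 member in edgeR, as for 9.41% of all genes, and for 1 in DESeq2, as for 10.4%. In edgeR that gene was again Oosp1, at 698 to 1092 CPM in Kdm5b and 397 to 792 CPM in water 2C samples. Its log2 fold change was 0.40 (SE 0.16, p = 0.0195 and adjusted p = 0.419 in edgeR), and all 6 Kdm5b samples lay above the water mean while 2 lay above the highest water sample. The strips were uneven here, with 3 water and 5 Kdm5b samples in strip 11 and 6 water and 1 Kdm5b sample in strip 12. Oosp1 was 0.64 higher within strip 11 and 0.70 higher within strip 12, and with the strip as a covariate its log2 fold change was 0.64 and the adjusted p was 0.0232 in edgeR. In strip 11 alone edgeR gave 0.60 with an adjusted p of 0.147. In the fit with no strip term, the log2 fold change of Oosp1 was 0.33 without water 2C replicate 2 (edgeR adjusted p = 0.547), against 0.40 with it. The other 6 genes had log2 fold changes from 0.12 (Bmp15, 95% interval -0.17 to 0.41) to 0.43 (Gdf9, -0.07 to 0.94). Both ends moved with single libraries, and Gdf9 was at 0.26 without Kdm5b 2C replicate 5 and Bmp15 at 0.04 without Kdm5b 2C replicate 3. Over all fits that left out 1 sample, Gdf9 ran from 0.26 to 0.54 and Bmp15 from 0.04 to 0.18.

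The share of Kdm5b counts differed between samples, and a slope on its log2 value was fitted within each injected group. It was 2.30% to 10.4% in Kdm5b zygotes and 8.27% to 15.8% in Kdm5b 2C samples, where it spanned less than a doubling. This share also depends on the other RNA of the sample, and the amount injected was not measured. None of the 7 passed, in zygotes (0% of 12890 genes) or in 2C samples (0% of 11984 genes), with 1 and 3 members at an unadjusted p under 0.05 in edgeR, against 3.35% and 6.27% of all genes. The lowest p was that of Gdf9 in both. Its log2 level changed by 0.29 per doubling of the share in zygotes (SE 0.11, p = 0.0161 and adjusted p = 1.0 in edgeR) and by -1.21 in the 6 Kdm5b 2C samples (SE 0.30, p = 0.00171 and adjusted p = 0.625 in edgeR), so the 2 estimates had opposite signs.

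Gdf9 also had, of the 7, the widest spread between samples of a group for a gene of its level. In water zygotes the SD of its log2 CPM was 0.26, larger than in 96.9% of the 612 genes within 2-fold of its mean, whose median SD was 0.11. The same held in Kdm5b zygotes (SD 0.35, larger than in 99.6% of such genes), water 2C samples (0.62, 97.2%) and Kdm5b 2C samples (0.58, 98.6%). Bmp15, its partner and the more abundant gene, had SDs of 0.18, 0.18, 0.36 and 0.27, larger than in 82.6% to 87.7% of genes at its level. Zp1 in Kdm5b zygotes (SD 0.16) was steadier than most, with a smaller SD in 20.5% of genes at its level, and Zp3 in Kdm5b 2C samples (0.20) had a smaller SD in 11.4%. Counts of Gdf9 were 1933 to 18406 per sample and those of Astl in 2C samples 53 to 310. The libraries were amplified and duplicates were kept, so these are not numbers of molecules, and the part of sampling in the spread was not tested.

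**Figure D4:**
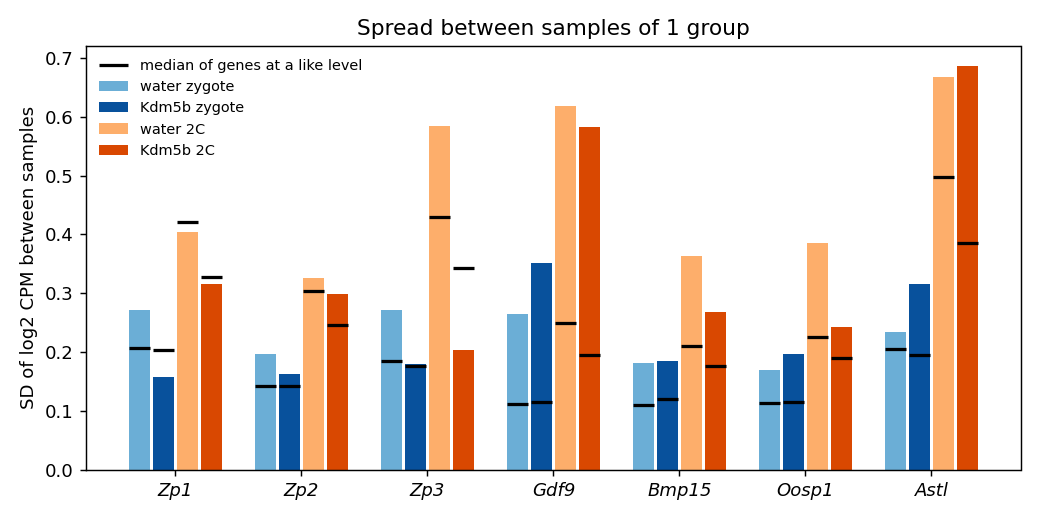
Standard deviation of log2 CPM between the samples of each group (bars, axis from 0) for the 7 genes, with a black line for the median SD of all genes within 2-fold of the same mean level. The Gdf9 bars reach 0.26, 0.35, 0.62 and 0.58 against medians of 0.11, 0.11, 0.25 and 0.20.

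Members varied together to different degrees once the group means had been taken out. Over 35 samples, the deviations of Oosp1 and Bmp15 had a Pearson r of 0.75, those of Gdf9 and Astl 0.63, those of Zp1 and Astl 0.62 and those of Gdf9 and Bmp15 0.55. Among the zona genes the values were 0.52 (Zp1 and Zp2), 0.49 (Zp1 and Zp3) and 0.47 (Zp2 and Zp3). Zp2 and Gdf9 had -0.07 and Zp2 and Bmp15 0.01. These points share libraries and depth, and the values are descriptions only. By level over all 35 samples the genes most like Oosp1 were Laptm4a (r = 0.93) and Kdelr2 (r = 0.89), those most like Gdf9 were Npc1 (r = 0.91) and Pdia6 (r = 0.90), and those most like Astl were Adgrg1 (r = 0.90) and Lamtor3 (r = 0.90). For Zp3 they were Emg1 (r = 0.89) and Uqcrh (r = 0.88), for Bmp15 Dynll1 (r = 0.80) and Psmb2 (r = 0.79), for Zp2 Ifnar1 (r = 0.77) and Sh3bgrl3 (r = 0.71), and for Zp1 Srd5a3 and Atrn (r = 0.71 each). With group means taken out, Oosp1 was again most like Laptm4a (r = 0.88), followed by Cnih1 (r = 0.88), and Gdf9 was most like Slc45a3 (r = 0.86) and Sdc1 (r = 0.84). Bmp15 was then most like Cdc42 (r = 0.84) and Arl6ip1 (r = 0.83), Astl most like Mesp2 (r = 0.80) and Slc44a2 (r = 0.78), and Zp3 most like Ptpn9 (r = 0.78) and Gatc (r = 0.77). Zp1 was most like Cib1 (r = 0.80) and Srd5a3 (r = 0.74), and Zp2 most like Mon2 (r = 0.77) and Mapk3 (r = 0.74). No member was among the 2 genes most like another.

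Genes listed as acting with the 7 were followed through the same stage step. The lists were chosen by function with earlier results of these data known, so their counts and medians are descriptions. Of 10 egg surface and egg coat partners 7 could be tested between water 2C samples and zygotes, and 1 rose and 4 fell, with a median log2 fold change of -0.91 against 0.02 over all genes. Astl is on this list and is 1 of the 4. The falls also included Fetub, whose product fetuin-B inhibits ovastacin (116.5 ± 11.9 TPM in water zygotes, log2 fold change -1.82, edgeR adjusted p = 2.63e-10), and Oosp2, a relative of Oosp1 (-1.77, edgeR adjusted p = 7.87e-05). Oosp3, the most abundant of the list at 558 ± 86.9 TPM, rose as Oosp1 did (0.46, edgeR adjusted p = 0.000579), so the 3 Oosp genes did not move one way. Mfge8, the lowest, was at 0.484 ± 0.472 TPM and was not tested. In Kdm5b samples 2 of 8 rose and 5 fell, with Oosp2 at -1.70, Fetub at -2.01 and Cd9, an egg membrane protein needed for fusion with sperm, at -1.11 (edgeR adjusted p = 3.41e-10, 7.79e-10 and 0.00013). A list for cortical granule secretion, the route by which ovastacin leaves the egg, held 16 genes. Of these 15 were tested, and 2 rose and 2 fell in water samples. Whether each listed gene, Padi6 among them, acts in that route was not tested. Padi6, the most abundant of the list at 959 ± 225 TPM, fell (-1.81, edgeR adjusted p = 8.97e-11), and Snap25, the lowest, was at 0.409 ± 0.462 TPM. In Kdm5b samples 2 rose and 3 fell, among them Padi6 (-1.74, edgeR adjusted p = 6.05e-13) and Syt1 (-1.03, edgeR adjusted p = 3.00e-07).

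For the ligand pathway, 5 of 15 TGF-beta family ligands and binding proteins other than Gdf9 and Bmp15 could be tested, and 2 rose and 0 fell. Tgfb2, the most abundant at 333 ± 25.7 TPM, rose (0.41, edgeR adjusted p = 9.62e-05), and Nodal was at 0 in all water zygotes. Of 9 receptors 8 were tested, and 2 rose and 2 fell. Bmpr1b, a type I receptor of BMP ligands and the most abundant at 162 ± 13.0 TPM, fell (-0.70, edgeR adjusted p = 1.66e-07), and Tgfbr2 was lowest at 0.0942 ± 0.101 TPM. Of 12 SMADs and regulators 11 were tested, and 5 rose and 2 fell. Smad7 and Skil, which restrain SMAD signalling, were both low in zygotes (0.621 ± 0.42 and 0.428 ± 0.404 TPM) and rose (2.18 and 2.22, edgeR adjusted p = 0.00316 and 0.0112). Ski was the most abundant at 305 ± 15.2 TPM and Smad6 the lowest at 0.256 ± 0.37 TPM. In Kdm5b samples Smad7 and Skil rose too (1.20 and 2.43, edgeR adjusted p = 0.0365 and 0.00026), as did the receptor gene Tgfbr1 (1.09, edgeR adjusted p = 5.81e-05). There, 1 of 6 ligands and binding proteins rose and 1 fell, 3 of 8 receptors rose and 2 fell, and 6 of 11 SMADs and regulators rose and 3 fell. Of the 4 proprotein convertases, which cut precursors such as those of the zona proteins and TGF-beta ligands, Furin was the most abundant at 92.8 ± 11.4 TPM and fell in water samples (-0.46, edgeR adjusted p = 0.0122), the only one of the 4 to pass, and 0 passed in Kdm5b samples. Pcsk5 was the lowest at 1.79 ± 0.609 TPM.

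Of 11 oocyte factors that regulate such genes, 10 were tested and 3 rose and 5 fell in each of the 2 stage comparisons. Nobox, a homeobox factor of the oocyte, fell (-1.16 in water and -1.90 in Kdm5b samples, edgeR adjusted p = 2.71e-09 and 1.69e-12), as did Gtf2b, a general factor of RNA polymerase II and the most abundant of the list at 682 ± 72.2 TPM (-1.60 and -1.78, edgeR adjusted p = 1.20e-08 and 2.57e-11). Taf4b, a TFIID subunit, rose (1.31 and 1.26, edgeR adjusted p = 5.45e-09 and 3.37e-09), and Sohlh1 was the lowest at 0.175 ± 0.399 TPM. Nobox was also the only gene of these lists whose stage change differed between the injections (interaction -0.73, SE 0.16, edgeR adjusted p = 0.0328), and it is named for that after its values were seen. Between Kdm5b and water samples of the same stage, 0 genes of these lists passed an adjusted p under 0.05 in edgeR.

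Egg markers and early embryo markers moved with stage as well, and their part in the changes of the 7 was not tested. The 7 egg and zygote markers, of which Oosp1 and Gdf9 are 2, summed to 11074 to 13936 TPM in water zygotes and 7468 to 11194 TPM in water 2C samples, and 1 rose and 5 fell. Nlrp5, Mos and Zar1 fell by 1.60, 1.69 and 1.24 on the log2 scale (edgeR adjusted p = 2.06e-08, 2.22e-06 and 2.23e-06), while Dppa3, the most abundant at 4674 ± 382 TPM, had -0.05 (edgeR adjusted p = 0.672). All 7 early 2-cell markers that could be tested rose, and 0 of the 4 cumulus and granulosa markers tested passed, with Cyp19a1 the most abundant at 27.2 ± 4.31 TPM. In Kdm5b samples 1 of 5 fell, which was Cyp19a1 (-0.87, edgeR adjusted p = 0.00147).

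**Figure D5:**
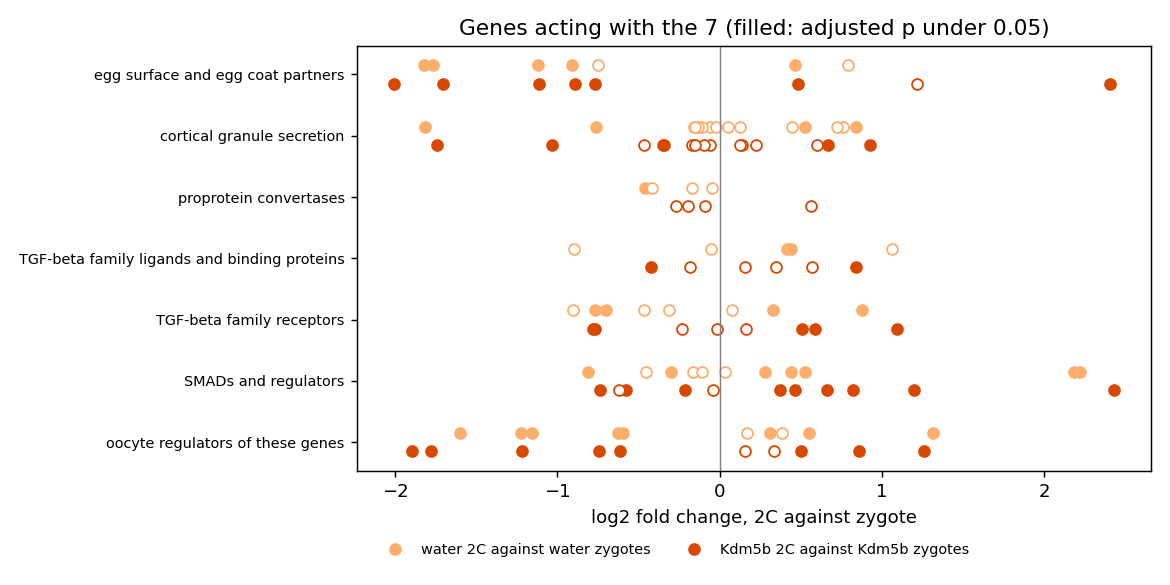
Log2 fold change between 2C samples and zygotes (x axis) of every tested gene in 7 lists, in water samples (light) and Kdm5b samples (dark). The lists were chosen by function as partners of the zona and secreted factors. Filled points have an adjusted p under 0.05 in edgeR. Most lists hold points on both sides of 0, and the egg surface and egg coat partners have a median of -0.91 in water samples.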

How the data were processed

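RNA-seq libraries (SMART-Seq Stranded) of 35 samples were sequenced by the authors. The deposited table holds counts, whole numbers of fragments per RefSeq gene of GRCm38, not normalized. Per the labels and the study's methods, the authors trimmed reads with fastp 0.21.0, aligned with STAR 2.7.3a and counted sense-strand pairs with featureCounts 1.5.1, so fragments mapping to several places were not counted and duplicates were kept. Exon lengths (unit: bases) are the deposited ones. The repeat table was not used. Columns of no known sample numbered 0.

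The Kdm5b row was removed from the counts, and every pair of groups had a separate model in edgeR 4.0.16 (R 4.3.3, TMM, filterByExpr with a minimum count of 10, quasi-likelihood test, Benjamini-Hochberg). DESeq2 1.42.0, other filters and scalings, single embryos, index strips, a replicate block and leaving out each sample were alternatives. CPM used TMM factors, TPM the exon lengths. Ratios used counts plus 0.5 and permutation tests (scipy 1.17.1, numpy 2.4.6, pandas 2.3.3, Python 3.11.15), adjusted over 15 tests. Figures used matplotlib 3.10.9. Promoters came from RefSeq (GRCm38.p6) and transcripts from GENCODE vM21. The fits were tested on simulated data. Members had 53 or more counts in every sample; reads were amplified and duplicates kept, so counts are not numbers of molecules and the share of sampling error in the spread is unknown. Named genes were all 7 members, per list up to 3 called genes with the smallest p and those highest and lowest in TPM, and per member the 2 most correlated genes. Members and lists were chosen with earlier results of these data known. No 2 libraries of a group agreed within sampling noise (chi-square per degree of freedom at least 10.1). Labels call the samples biological replicates, but embryos of pooled females are not tied to animals.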

Additional observations from a re-analysis of the deposited data

Results flagged for a closer look

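Over the 28 combinations of gene and group, 2 single values lay far from the rest of their group by Dixon's criterion, which chance alone meets in about 1 of 20 groups. Zp3 was at 8.00 CPM in water 2C replicate 2, with the next lowest sample at 21.0 CPM. Zp1 was at 53.2 CPM in Kdm5b 2C replicate 5, with the next highest at 36.3 CPM. Without the first, the log2 fold change of Zp3 between water 2C samples and zygotes was -0.74 in place of -0.86. Without the second, that of Zp1 between Kdm5b 2C samples and zygotes was 0.19 in place of 0.34 and its adjusted p in edgeR was 0.186.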

How the results depend on the processing

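Astl was the 1 member past both thresholds between water 2C samples and water zygotes in every setting but the one with no threshold on the fold change, where 5 members passed, and with each of the 19 samples left out the count stayed at 1. Without water 2C replicate 2 its log2 fold change of -1.0003 was barely past the threshold. Between Kdm5b 2C samples and Kdm5b zygotes the count was 0, and it became 1 without TMM (total counts only), when Astl passed, and 5 with no threshold on the fold change. Leaving out 1 sample at a time gave 0 to 1. Total counts moved the median of all genes to -0.12 there. For Kdm5b against water 2C samples, 1 member (Oosp1) passed the adjusted p alone with the index strip as a covariate. The counts for Kdm5b against water zygotes, the interaction, the slopes and the ratios did not move under the alternatives run. Over all genes, the counts past both thresholds moved more for Kdm5b against water 2C samples, from 0 higher and 1 lower to 6 and 47 with the strip covariate, 4 and 66 in strip 11 alone, 15 and 55 in a single model of all 35 samples and 1 and 6 in DESeq2, and for the interaction from 1 and 1 to 4 and 16 in DESeq2. The causes were not tested. Of 887 values of single genes and ratios under alternatives 854 kept their sign and side of the adjusted p, 12 lost it, 7 gained it and 14 changed sign without passing.

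Replicate numbers did not pair the samples, since 0 pairs had a correlation of deviations over 0.1 in any comparison. With the replicate block the count was 1 for water 2C samples against zygotes and 1 for Kdm5b 2C samples against zygotes (Astl), and 0 elsewhere.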
